A study of Homo sapiens with 2 samples.

Results

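SDC2, BMP3, IKZF1, TFPI2, BCAT1, NDRG4 and VIM are 7 genes whose DNA methylation is read in tests for colorectal cancer. They were chosen by name for that reason, with earlier results of these data known. Their starts were examined for H3K27me3, a repressive histone mark in which lysine 27 of histone H3 carries methyl groups, in HCT116, an established human colorectal carcinoma cell line. Around each start, at the nearest kb on hg19, the 10 bins of 1 kb within 5 kb were taken, which makes 70 bins, where 2600564 autosomal bins in all held a read, with 50 kb on either side as context. The series consists of 1 group, HCT116 cells grown without a named treatment and immunoprecipitated with an antibody to H3K27me3, in 2 libraries labelled as biological replicates. Nothing in the labels says whether they came from separate cultures, so the spread between them may be technical. Neither an input library nor a measurement of DNA methylation or of RNA was used here. The depth was 53187504 reads for replicate 1, against 97031399 for replicate 2, or a mean of 22.0 and 37.5 reads per listed autosomal bin. All levels are folds over that mean, so 1 is the mean listed bin of the library.

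H3K27me3 is deposited by Polycomb repressive complex 2 and is found at silent genes, often over CpG islands, the CpG-rich stretches that cover many promoters. In colorectal cancer the CpG islands of these 7 genes frequently gain DNA methylation, which is why stool and plasma tests read them: NDRG4 and BMP3 together in a stool test, IKZF1 and BCAT1 together in a plasma test, and SDC2, TFPI2 and VIM in others. DNA methylation and H3K27me3 are both associated with silencing, and at dense CpG islands they are often found apart. The tests concern DNA methylation, so what follows describes a different mark at the same starts.

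The bases before 4 of the starts are shown because CpG sites, printed in capitals, are what the tests read, and because the genes stand at different H3K27me3 levels. Each run is the 250 bases before the outermost RefSeq start on GRCh38.p14, 5′ to 3′ on the strand of the gene, and its position must not be compared with the hg19 positions used for the levels. The table matched 5 of the 7 genes. SDC2 and BMP3, the 2 starts called enriched below, were not matched, so no run of theirs is shown. Whether a test reads these 250 bases was not checked.
NDRG4, chr16:58463465-58463714, + strand: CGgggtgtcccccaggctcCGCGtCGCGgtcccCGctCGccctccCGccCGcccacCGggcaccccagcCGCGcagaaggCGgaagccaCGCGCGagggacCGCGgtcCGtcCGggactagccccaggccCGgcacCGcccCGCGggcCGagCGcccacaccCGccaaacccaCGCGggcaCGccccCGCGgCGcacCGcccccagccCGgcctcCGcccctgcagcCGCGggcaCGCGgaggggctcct
IKZF1, chr7:50304466-50304715, + strand: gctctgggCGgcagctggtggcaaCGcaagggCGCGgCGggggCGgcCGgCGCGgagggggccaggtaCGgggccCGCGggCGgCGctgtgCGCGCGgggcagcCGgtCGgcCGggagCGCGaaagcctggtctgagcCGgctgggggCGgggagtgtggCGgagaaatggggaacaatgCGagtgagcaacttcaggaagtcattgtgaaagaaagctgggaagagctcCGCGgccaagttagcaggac
TFPI2, chr7:93890754-93891003, - strand: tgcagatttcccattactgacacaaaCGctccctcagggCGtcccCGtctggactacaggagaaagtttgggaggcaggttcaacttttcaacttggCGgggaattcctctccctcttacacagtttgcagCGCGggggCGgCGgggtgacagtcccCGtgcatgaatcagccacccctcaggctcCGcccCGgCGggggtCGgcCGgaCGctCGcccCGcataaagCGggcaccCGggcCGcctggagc
VIM, chr10:17227991-17228240, + strand: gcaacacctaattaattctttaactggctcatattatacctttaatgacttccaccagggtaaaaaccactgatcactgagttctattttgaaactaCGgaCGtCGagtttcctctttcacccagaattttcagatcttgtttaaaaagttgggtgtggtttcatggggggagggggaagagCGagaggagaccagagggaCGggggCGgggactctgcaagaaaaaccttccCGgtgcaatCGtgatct
The NDRG4 run holds 40 CpG sites at 82.8% G and C, and 2.16% of the 35116 promoters in the table hold as many. IKZF1 holds 28 at 71.2%, TFPI2 20 at 64.4%, VIM 8 at 46.0% and BCAT1, not printed, 7 at 48.8%. The median promoter holds 11. Some of these genes have further starts in the table. Those of BCAT1 hold 17, 28, 30 and 10 CpG sites, those of NDRG4 29, 7 and 3, and those of IKZF1 3 and 0.

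The 7 starts differed widely in H3K27me3. SDC2 and BMP3 were marked at 3.82 ± 0.0247 and 2.32 ± 0.155 fold (SD, n = 2 for every such value below), IKZF1 and TFPI2 stood at 1.34 ± 0.0554 and 1.32 ± 0.120, BCAT1 at 1.02 ± 0.177 and NDRG4 at 0.664 ± 0.123. VIM was the lowest at 0.286 ± 0.0772. A window was called enriched when its reads passed a one-sided Poisson test against the mean, Benjamini-Hochberg adjusted over all 2671407 autosomal windows of 10 kb at steps of 1 kb, and it stood at 2-fold or more, in both libraries. By this rule 2 of 7 starts (28.6%), SDC2 and BMP3, were enriched, beside 13.6% of all windows. IKZF1 and TFPI2 passed the Poisson test in both libraries and not the fold minimum. Without that minimum 22.6% of all windows were called. The Poisson test allows for counting error only. Windows were not tested with the wider scatter between libraries allowed for, so a pass at levels this near 1 may not hold. The median of the 7 levels was 1.23 in replicate 1 and 1.38 in replicate 2, where the median of all windows was 0.332 and 0.357. VIM was the only member under 0.5-fold in both libraries, a range that held 57.8% of all windows. These rates describe the whole autosomal genome, not promoters, since starts of other genes on hg19 were not used here.

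The order of the 7 genes was the same in both libraries except for IKZF1 and TFPI2, whose values overlapped. All other neighbours in the order were separated in both libraries, by more than the distance between replicates for SDC2 against BMP3, for BMP3 against IKZF1 and for NDRG4 against VIM. From TFPI2 to BCAT1 to NDRG4 the gaps between the nearest libraries were smaller than the distance between the BCAT1 libraries. Genes are measured in the same 2 libraries, so their values are paired by library. Even with this pairing ignored, an exact two-sided permutation test of 2 values against 2 cannot go below p = 0.333. A paired test has fewer arrangements still, so no test between genes was made. The order at the top depended on scaling. Over the mean of its own chromosome, BMP3 stood at 3.77 in replicate 1 and 4.22 in replicate 2, and SDC2 at 2.97 and 2.92.

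**Figure D1:**
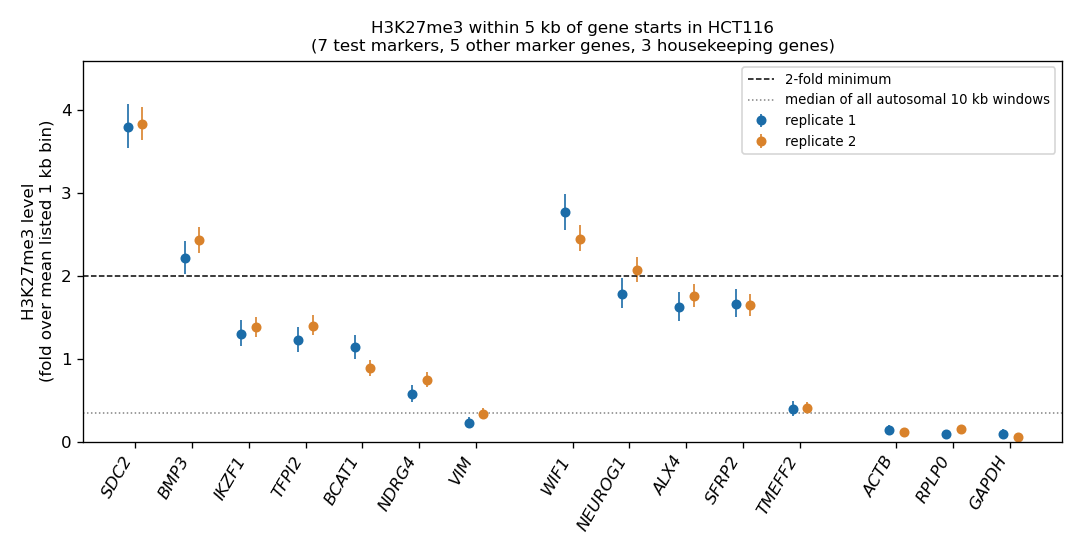
H3K27me3 level, as fold over the mean listed 1 kb bin of each library, in the 10 kb around each gene start, with replicate 1 in blue and replicate 2 in orange; bars are exact Poisson 95% intervals, which cover counting error only. SDC2 and BMP3 lie above the dashed 2-fold line in both libraries and VIM lies at or below the dotted median of all autosomal windows, while the 3 housekeeping genes at the right lie lower still.

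SDC2 encodes syndecan 2, a heparan sulfate proteoglycan of the cell surface, and its start was the most strongly marked of the 7. The 10 kb around it, chromosome 8 from 97501001 to 97511000 on hg19, held 837 reads (replicate 1) and 1441 reads (replicate 2). The levels were 3.80 (exact Poisson 95% interval 3.55 to 4.07) and 3.84 (3.64 to 4.04), at percentiles 95.2 and 94.5 of all windows. Both libraries were high, and 8 of the 10 bins were called by the same rule at 1 kb. The start lay inside a domain, a run of called bins joined over gaps of at most 2 bins, of 154 kb from 97488001 to 97642000 with a mean level of 4.20 and 4.38. A gap of 4 kb, beginning 18 kb upstream, separated this domain from another of 128 kb, from 97356001 to 97484000, at 5.26 and 5.59. Within 50 kb of the start 88 of 100 bins were called, and the highest by the mean of both libraries, 47 kb upstream, reached 10.1 and 9.46. Upstream and downstream were alike: the mean over 50 kb was 4.58 and 4.76 before the start, 4.38 and 4.51 after it. The surrounding 2 Mb was high as well, with its median bin at 3.64 and 3.89. The mean level of chromosome 8 was 1.28 and 1.32, copy number was not measured, and its part in the SDC2 level was not tested.

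BMP3, a secreted ligand of the bone morphogenetic protein family, was also enriched, at a lower level. In its window, chromosome 4 from 81947001 to 81957000, 487 reads in replicate 1 and 913 in replicate 2 gave levels of 2.21 (2.02 to 2.42) and 2.43 (2.28 to 2.59), and 7 of 10 bins were called. The window passed the fold minimum by a small margin, and within 2 kb of the start the level fell short of it, at a mean of 1.70. A domain of 35 kb ran across the start, from 81942001 to 81977000, at 2.68 and 2.79. It reached 10 kb upstream and 25 kb downstream, so most of it lay over the side into which the gene is transcribed. Over 50 kb the mean was 2.37 and 2.34 downstream, above 1.49 and 1.68 upstream. Beyond a gap of 4 kb a domain of 8 kb followed. The mean level of chromosome 4 was low, at 0.587 and 0.576. Copy number was not measured, and its part in this mean or in the BMP3 level was not tested. The median bin of the 2 Mb around BMP3 stood at 1.32 and 1.47.

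TFPI2, a secreted inhibitor of serine proteases, lay between marked flanks. Its window, chromosome 7 from 93515001 to 93525000, held 271 and 526 reads, at levels of 1.23 (1.09 to 1.39) and 1.40 (1.28 to 1.53). No bin of the 10 was called. The upstream side was the higher: over the 5 kb before the start the level was 1.51 and 1.80, and over the 5 kb after it 0.954 and 1.01. A domain of 4 kb began 5 kb upstream, from 93525001 to 93529000, at 2.68 and 2.84. Downstream, past the short gene, a domain of 39 kb began 31 kb from the start, from 93450001 to 93489000, at 2.42 and 2.73. The lowest of the 10 bins in both libraries was the bin just downstream of the start position, with 11 and 12 reads.

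IKZF1 encodes Ikaros, a zinc finger transcription factor of lymphocyte development. Its window, chromosome 7 from 50339001 to 50349000, held 287 and 519 reads, at levels of 1.30 (1.16 to 1.46) and 1.38 (1.27 to 1.51). The mean hid a break at the start. The 5 kb upstream stood at 1.74 and 1.78, the 5 kb downstream at 0.873 and 0.986, and the bin just before the start held 2 reads in replicate 1 and 0 in replicate 2. A count of 0 allows up to 3 reads there. The 3 called bins were the 3 farthest upstream, part of a domain of 6 kb from 50336001 to 50342000 at 2.15 and 2.43. A peak of 3 kb, 16 kb downstream of the start position, reached 4.45 and 3.62 in its highest bin. From 50371001 to 50410000 no bin was listed in either library, a run of 39 kb that began 27 kb downstream and cannot be read as an absence of the mark. Over the listed bins of the 50 kb downstream the level was 1.38 and 1.49, not the 0.746 and 0.803 that unlisted bins counted as 0 would give.

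BCAT1, the cytosolic branched-chain aminotransferase, was near the mean of listed bins. Its window, chromosome 12 from 25097001 to 25107000, held 251 and 334 reads, at levels of 1.14 (1.00 to 1.29) and 0.890 (0.797 to 0.991). Here replicate 1 was the higher, unlike at the other 6 starts. No bin of the 10 was called, and of the 100 bins within 50 kb 2 were, the nearer 7 kb downstream at 2.73 and 2.42. That bin was also the highest of the 100 by the mean of both libraries. The 5 kb on either side stood at 1.15 and 0.853 upstream and at 1.13 and 0.927 downstream. From 5 to 22 kb downstream, a stretch picked after its values were seen, the mean was 1.53 and 1.5. From 5 to 11 kb upstream, picked likewise, it was 0.795 in replicate 1 and 1.36 in replicate 2, so the libraries differed there. The 50 kb on either side averaged 0.771 and 0.790 upstream and 0.803 and 0.872 downstream, in each library below the 10 kb window.

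NDRG4, a member of the N-myc downstream regulated gene family expressed in brain and heart, lay below the mean listed bin between marked flanks. Its window, chromosome 16 from 58493001 to 58503000, held 127 and 282 reads, at levels of 0.577 (0.481 to 0.687) and 0.751 (0.666 to 0.844). These are percentiles 63.7 and 67.8 of all windows. The median bin of the surrounding 2 Mb stood lower, at 0.409 and 0.453. The 5 kb before the start were nearly empty, at 0.136 and 0.229, and the 5 kb after it stood at 1.02 and 1.27. This made the downstream side 7.47 times the upstream side in replicate 1 and 5.56 times in replicate 2. Farther upstream the mark was strong. A domain of 9 kb from 58476001 to 58485000 stood at 3.67 and 3.92, and a domain of 7 kb from 58458001 to 58465000 at 3.97 and 4.76. A domain of 10 kb lay 10 kb downstream, at 2.33 and 2.20. Within 50 kb 22 bins were called, none of them within 5 kb of the start.

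VIM encodes vimentin, the intermediate filament protein of mesenchymal cells, and its surroundings were poor in H3K27me3 throughout. Its window, chromosome 10 from 17265001 to 17275000, held 51 and 128 reads, at levels of 0.232 (0.173 to 0.305) and 0.341 (0.284 to 0.405), or percentiles 37.6 and 48.4 of all windows. Within 50 kb 0 of 100 bins were called, and the nearest domain, of 5 kb, began 59 kb downstream. The 5 kb downstream, over the gene, were lower still at 0.164 and 0.0746, against 0.300 and 0.607 upstream. The median bin of the surrounding 2 Mb stood at 0.273 and 0.293, so the VIM window was close to its neighbourhood.

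**Figure D2:**
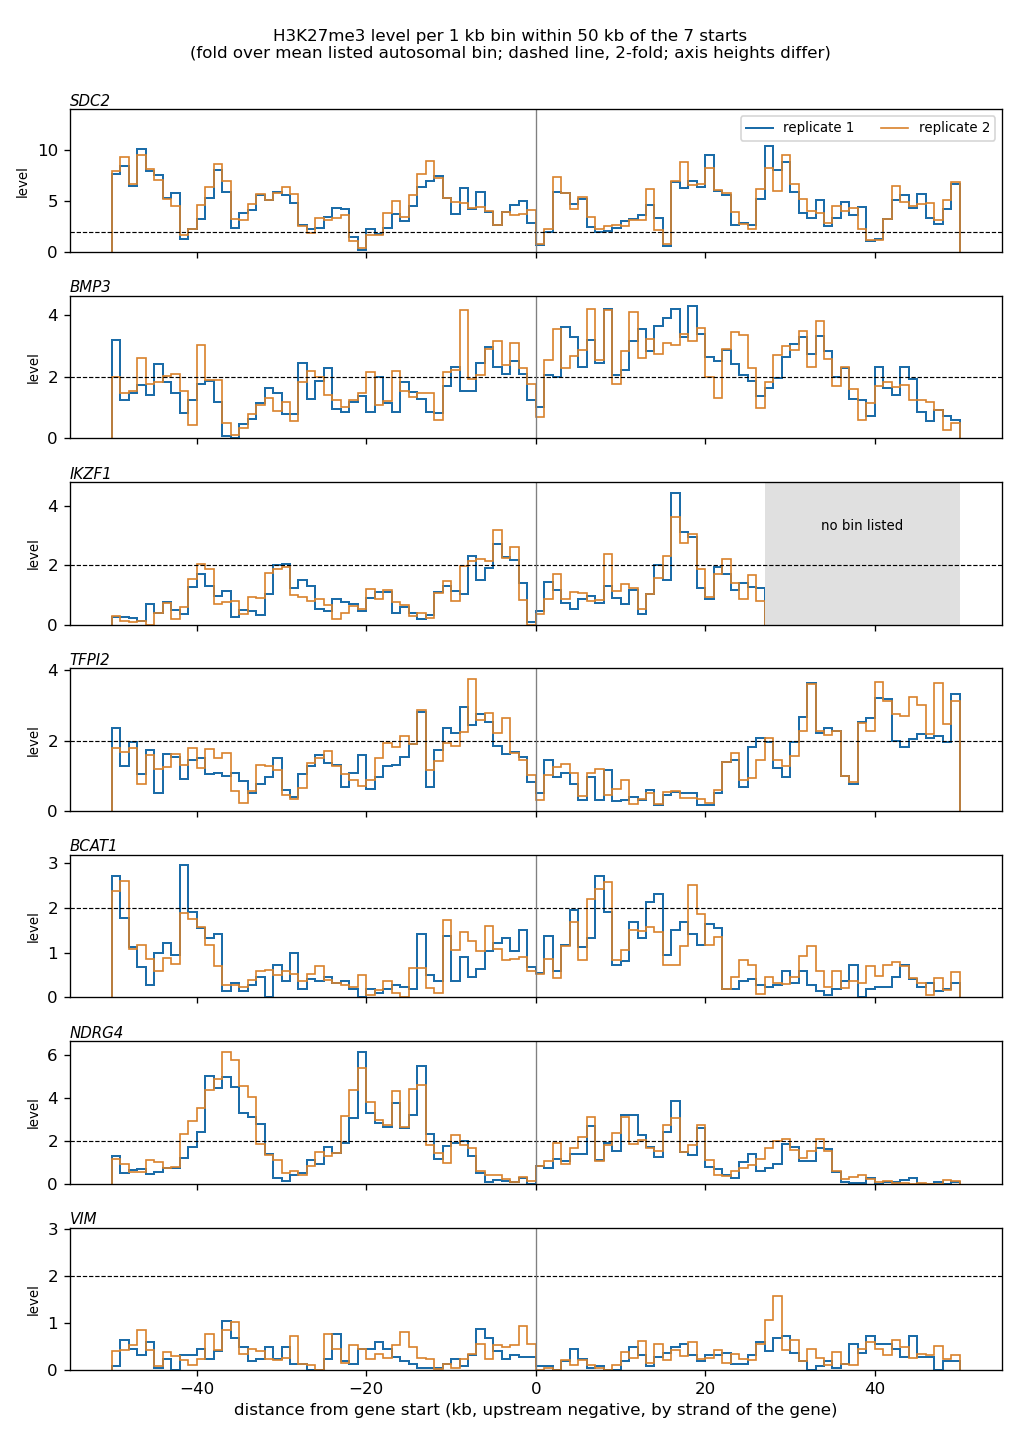
H3K27me3 level per 1 kb bin against distance from the start in kb, with upstream at the left by the strand of each gene. Replicate 1 is in blue and replicate 2 in orange, the dashed line is 2-fold, and the heights of the axes differ. The grey band marks the long run downstream of IKZF1 that neither library lists, and other unlisted bins are not shaded. SDC2 is above 2-fold over most of the stretch, NDRG4 has peaks 13 to 22 kb and 33 to 40 kb upstream and is low before its start, and VIM has no called bin.

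In all, 18 of the 70 bins within 5 kb (25.7%) were called, beside 12.7% of all autosomal bins, and 172 of the 700 within 50 kb (24.6%). Much of this came from SDC2: without it, 10 of 60 bins (16.7%) and 84 of 600 (14.0%) were called, nearer to the background. The background of 12.7% is over bins that held a read. The bins around the starts also include unlisted ones, 23 of them downstream of IKZF1, which lowers their shares. A domain reached into the 10 kb around 3 of the 7 starts, SDC2, BMP3 and IKZF1, beside 23.0% of all windows. Neighbouring bins share a domain and are not independent.

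The 2 bins at the start were lower than the mean of the other 8 bins within 5 kb. This was seen in the counts and then measured, so it is given as a description. The 2 bins that meet at the start position were compared with the mean of the other 8 bins within 5 kb, and in each library they were the lower in 7 of 7 genes. The share among all windows was 53.6% in replicate 1 and 53.7% in replicate 2. The ratio was smallest at IKZF1, with 0.175 and 0.111, where the 2 bins stood at 0.273 and 0.186 and the other 8 at 1.56 and 1.68. BMP3 gave 0.447 and 0.448 and TFPI2 0.479 and 0.420. At SDC2 the ratio was 0.405 and 0.582, and the lowest bin, just downstream of the start position, fell to 0.682 and 0.799 inside the domain of 154 kb. BCAT1 gave 0.482 and 0.575, NDRG4 0.661 and 0.567 and VIM 0.744 and 0.785, the last from 8 and 21 reads in its 2 bins. A ratio under 1 need not be a dip with higher levels on both sides. At NDRG4 the 2 bins, at 0.409 and 0.466, stood above the 5 kb upstream, at 0.136 and 0.229. At VIM they stood at 0.182 and 0.280, above the 5 kb downstream, at 0.164 and 0.0746.

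A ratio under 0.5 in both libraries was found at BMP3, TFPI2 and IKZF1, or 3 of 7 genes, beside 7.28% of all windows. Where the outer 8 bins averaged at least 1-fold in both libraries, it was 3 of 4 genes beside 6.83% of such windows. SDC2 and BCAT1 were under 0.5 in replicate 1 and above it in replicate 2. The lower level of the 2 bins was not particular to the 7. Of the 5 other marker genes described below, 5 had the 2 bins below the mean of the other 8 in each library. A ratio under 0.5 in both was found at 3: NEUROG1 gave 0.283 and 0.274, ALX4 0.339 and 0.413 and TMEFF2 0.462 and 0.221. At ALX4 the 2 bins stood above the 5 kb downstream, and at SFRP2 above the 5 kb upstream. Of the 3 housekeeping genes RPLP0 was under 0.5 in both, with 0.444 and 0.222 from 2 and 3 reads in its 2 bins. The share of G and C before the start was 71.2% at IKZF1, 64.4% at TFPI2, 48.8% at BCAT1, 46.0% at VIM and 82.8% at NDRG4. The part of base composition in the low bins was not tested.

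**Figure D3:**
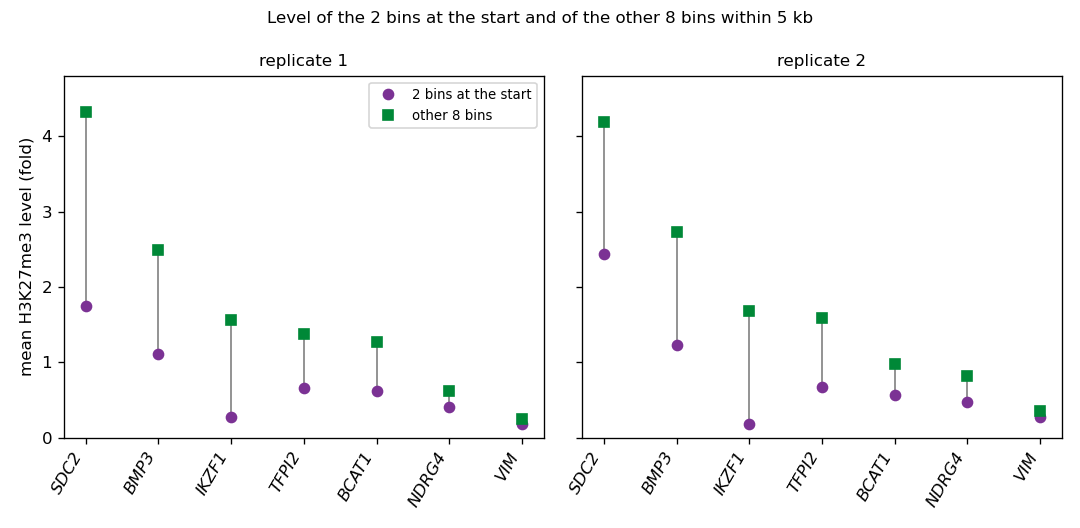
Mean H3K27me3 level of the 2 bins at the start (purple circles) and of the other 8 bins within 5 kb (green squares), as fold over the mean listed bin, for each gene and library. The circle lies below the square for 7 of 7 genes in both libraries, and the gap is small at VIM and NDRG4.

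The level was also taken at 5 other genes known for DNA methylation in colorectal cancer and at 3 housekeeping genes, whose starts on hg19 come from general knowledge. The housekeeping genes, active in every cell, were nearly free of the mark: ACTB stood at 0.141 and 0.123, RPLP0 at 0.0909 and 0.152, and GAPDH at 0.10 and 0.0639. VIM, the lowest of the 7, lay above all 3 in both libraries. Among the other marker genes WIF1, a secreted Wnt antagonist, was the single enriched one, at 2.77 and 2.45. NEUROG1 and ALX4, transcription factors of neural and limb development, stood at 1.79 and 2.08 and at 1.63 and 1.76, and SFRP2, another Wnt antagonist, at 1.67 and 1.65. TMEFF2, a transmembrane protein, stood at 0.395 and 0.408. The 7 genes and these 5 thus covered overlapping ranges, 0.232 to 3.84 and 0.395 to 2.77, with 2 of 7 and 1 of 5 enriched beside 13.6% of all windows. SFRP2 had a step like that of NDRG4, with 3.02 and 2.77 in the 5 kb downstream against 0.318 and 0.533 upstream.

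**Figure D4:**
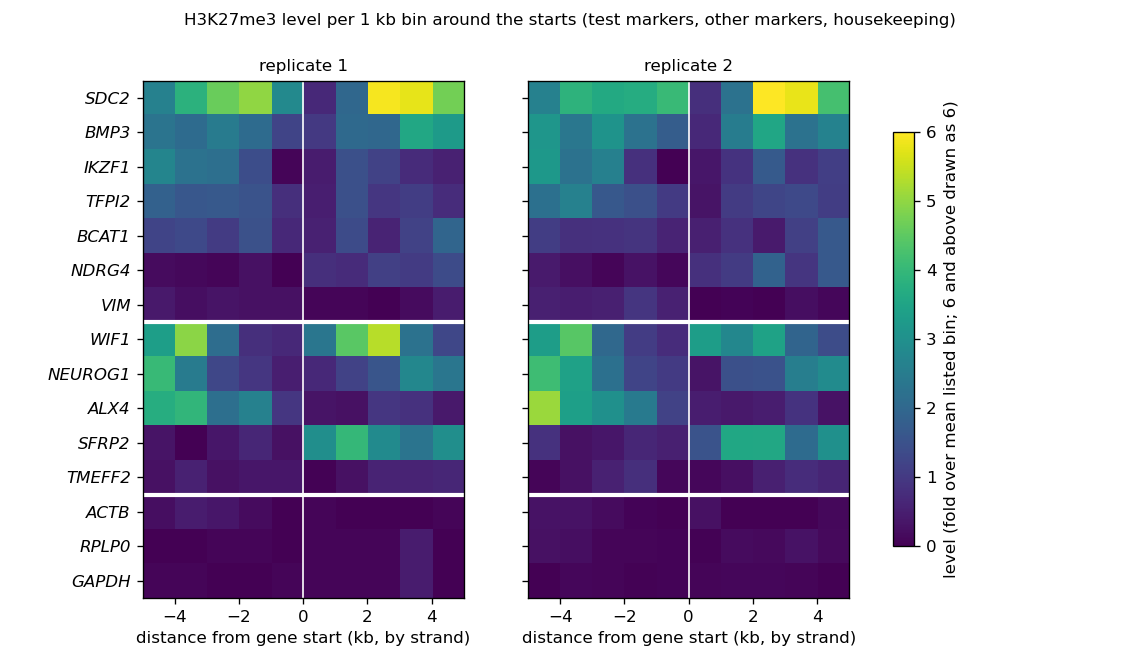
H3K27me3 level of each 1 kb bin within 5 kb of the start, by the strand of the gene, for replicate 1 at the left and replicate 2 at the right; rows are the 7 test markers, the 5 other marker genes and the 3 housekeeping genes, divided by white lines, and values of 6 and above are drawn as 6. Darker bins at the start are visible in IKZF1, BMP3 and SDC2 and also in NEUROG1, and the step at NDRG4 and SFRP2 runs from dark upstream to lighter downstream.

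The libraries were compared per window with a two-sided exact binomial test on reads divided by 2.65, the factor by which read shares scattered beyond what single reads would give, with Benjamini-Hochberg adjustment over all windows. It called 0 of the 7 starts different, beside 0.000337% of all windows; at an unadjusted p under 0.05 it found 1 of 7, beside 3.8% of windows. That gene was BCAT1, with a level in replicate 1 that was 1.28 times that in replicate 2 (unadjusted p = 0.0236, adjusted p = 1.00, exact binomial test). Taken as single reads, the same test called BCAT1 alone of the 7 (adjusted p = 0.0102, exact binomial test), beside 6.51% of all windows. The factor was estimated from these libraries and absorbs real differences between them. VIM had the widest ratio, 0.680, on the fewest reads.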

How the data were processed

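The authors deposited raw read counts per bin of 1000 bases, 1 table per library, and leave out bins without reads, so a missing bin was taken as 0. The aligner was BWA 0.7.12 and the build hg19 (GRCh37), per the submitters' processing notes. How bins were counted, and whether duplicates or poorly mapped reads were removed, is not given in the sources used here. No input library was used, so copy number and mappability are uncorrected.

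The level of a window is its mean count per bin over the library's mean of listed autosomal bins. Windows were 10 bins around each start, which was known to the nearest kb. Bins and windows were called with a one-sided Poisson test, Benjamini-Hochberg adjusted over all autosomal bins or windows at 0.05, and at least 2-fold in both libraries. Called bins at most 2 bins apart form a domain, whose level is the mean over all its bins. Poisson 95% intervals, and the limit of 3 reads for a count of 0, cover counting error only, and are too narrow where reads scatter 2.65 times as much between libraries as single reads would. For the same reason the one-sided Poisson test of windows passes too easily, and it was not repeated with reads divided by this factor. The tests were tried on simulated counts that held counting error only. That trial cannot show how they behave at the wider scatter of these libraries. All 7 members and all 8 comparison genes are named. The members and lists were chosen with earlier results of these data known. Starts and strands of the comparison genes, and strands of the members, come from general knowledge. Promoter sequences are from RefSeq (GRCh38.p14), used for sequence alone. Alternatives were other windows, scalings, fold minimums, gaps and each replicate left out. Computations used scipy 1.17.1 and numpy 2.4.6 with pandas 2.3.3 in Python 3.11.15, and figures matplotlib 3.10.9.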

Additional observations from a re-analysis of the deposited data

How the results depend on the processing

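Of the 7 starts, 2 were enriched, SDC2 and BMP3. Within 2 kb of the start, or at a fold minimum of 3, it was 1, SDC2, beside 13.3% and 7.78% of all windows. Without a fold minimum it was 4, with IKZF1 and TFPI2 added, and scaled to the median autosomal bin 5, with BCAT1 added to those, beside 22.6% and 29.0% of all windows, against 13.6% for the 2. With replicate 1 or replicate 2 left out it stayed 2, beside 14.9% and 13.8% of all windows. It was also 2 with 10 kb on either side (13.7% of all windows), 11 bins (13.6%) and scaling to the same chromosome (13.4%). The same held for a mean without the top 0.1% of bins (13.8%), unlisted bins left out (13.7%) and a fold minimum of 1.5 (18.2%). NDRG4 and VIM were called in none of these 12 settings. The median over the 7 genes of the mean level of both libraries, 1.32, became 0.871 within 2 kb of the start, 3.38 scaled to the median bin and 1.53 scaled to the same chromosome. SDC2 stood 1.5 above BMP3 in level; scaled to the same chromosome the difference was -1.05, a comparison added after the values were seen. The 18 called bins became 6 at a fold minimum of 3, beside 7.64% of all bins. A domain reached within 5 kb of 3 starts, SDC2, BMP3 and IKZF1, beside 23.0% of all windows, of 5 at a fold minimum of 1.5 beside 27.9%, and of 1 at 3 beside 15.7%. The starts differing between replicates, 0, became 1 with single reads. A ratio under 0.5 at the start was found in 3 genes, beside 7.28% of all windows. Without replicate 1 the count was 3, beside 15.8% of all windows. Without replicate 2 it was 5, with SDC2 and BCAT1 added, beside 19.0%. Fold minimums, the use of single reads and scaling to the median bin, which stands at 0.409 and 0.373 of the mean and so raises every level, move calls by construction, and the cause of the other moves was not tested. Levels of a few reads per bin, as at VIM, are limited by depth. No comparison between groups was possible because the libraries form 1 group.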
